A study of Mus musculus with 8 samples.

Results

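Collagens and the small proteoglycans that coat their fibrils were measured in mouse embryonic fibroblasts, cultured connective tissue cells, that carried or lacked the transcription factor Stat3. A gene belonged to the group if the platform annotation gave its probe set 1 symbol, and that symbol began with Col and a digit or was Dcn, Lum, Bgn, Fmod, Ogn, Dpt, Eln, Fbn1, Fbn2, Lox, Loxl1, Nid1, Vcan or Serpinh1. Of 10833 probe sets (8251 genes) with 1 symbol, 62 probe sets of 44 genes matched. After 19 that stayed under a log2 value of 5 on all arrays were skipped, 43 probe sets of 33 genes remained, 21 of them collagen genes. These are the members, out of 12488 probe sets in the table, and 40 of them (31 genes) reached log2 5 on at least 2 of the 8 arrays and were tested. The 3 member probe sets that were not tested were those of Col26a1, Col9a2 and a second one of Col1a2. Col2a1, Col4a3, Col4a4, Col10a1, Col13a1, Col14a1, Col15a1, Col17a1, Col19a1, Col22a1 and Fbn2 had only skipped probe sets, and Fbn1 had none with a single symbol.

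Each group came from a line that had immortalised spontaneously in culture with serum, either STAT3+/+ (WT) or STAT3-/- (KO). With a single line per genotype, a difference between genotypes cannot be told apart from a difference between lines. Cells of each line were used without treatment or after oncostatin M (OSM), an interleukin-6 family cytokine, at 20 ng/ml for 30 minutes, and the 4 groups held 2 arrays each. Array titles give the numbers 2 and 3 within every group, called replicates 2 and 3 here, and do not say what the number marks or whether cultures were separate, so a p-value here reflects only how far these arrays differ, and that spread may be technical. In bulk RNA, fewer cells of a type and less RNA per cell cannot be told apart.

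Fibrillar collagens are secreted as procollagens, folded in the endoplasmic reticulum with the chaperone Serpinh1 (HSP47), trimmed, assembled into fibrils and crosslinked by Lox and Loxl1. Small leucine-rich proteoglycans such as decorin (Dcn), lumican (Lum), fibromodulin (Fmod), biglycan (Bgn) and osteoglycin (Ogn) bind collagen or its partners and shape fibril growth. Type VI collagen forms beaded filaments around cells, and type IV collagen with nidogen (Nid1) is part of basement membranes. Fibroblasts are the main source of most of these proteins in connective tissue.

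Replicate number separated the arrays in 41.1% of all tested probe sets, against 0.429% for genotype and 0.118% for OSM, and enters every comparison. The correlation of the difference between replicates 3 and 2, over all tested probe sets, was 0.911 between both WT groups, 0.794 between both KO groups and 0.589 to 0.664 between genotypes. Comparisons were therefore made within the numbers, with the number as a term in limma. KO OSM replicate 2 correlated more strongly with untreated KO replicate 3 (r = 0.93 across tested probe sets) than the arrays of any 1 group did with each other (0.869 to 0.926). Stat3, by its brighter probe set, was at 10.11 to 11.94 on WT arrays and 7.81 to 9.17 on KO arrays. Its other probe set read 9.80 to 12.57 on WT arrays and 2.76 to 2.94 on 3 KO arrays, but 7.30 on KO OSM replicate 3. Of 10 fibroblast markers 3 (Thy1, Vim and Fap) stayed under log2 5 on all arrays, and 7 were measured, among them Pdgfra, Pdgfrb and Prrx1. Markers of other cell types were mostly under that floor, with 3 of 3 bone markers on the array (Alpl, Ibsp, Phex), 4 of 6 epithelial markers (Cdh1 and Epcam among them) and 5 of 6 leukocyte markers (Ptprc and Cd68 among them) on no array above log2 5. Of 6 endothelial markers, Cdh5, Tek and Tie1 were under it and 3, with Cd34 among them, were not. Of 5 myofibroblast markers 3, with Tagln among them, were tested.

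Some matrix genes varied little between arrays and others moved widely, as the plot of the tested members by array shows. Among the steady ones Col1a1, Col1a2, Col5a2, Serpinh1 and Lox were also bright, at 14.13 or more on every array by their brightest probe sets. The highest value of any probe set was 17.18, and whether such bright probe sets show differences in full was not tested. Each value is a log2 expression level of a probe set, and pairs of values give replicate 2 first and replicate 3 second. A value under 5 lies near background, and the size of a difference from it is only approximate. Probe sets differ in brightness, so values are compared across arrays and not between genes.

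**Figure D1:**
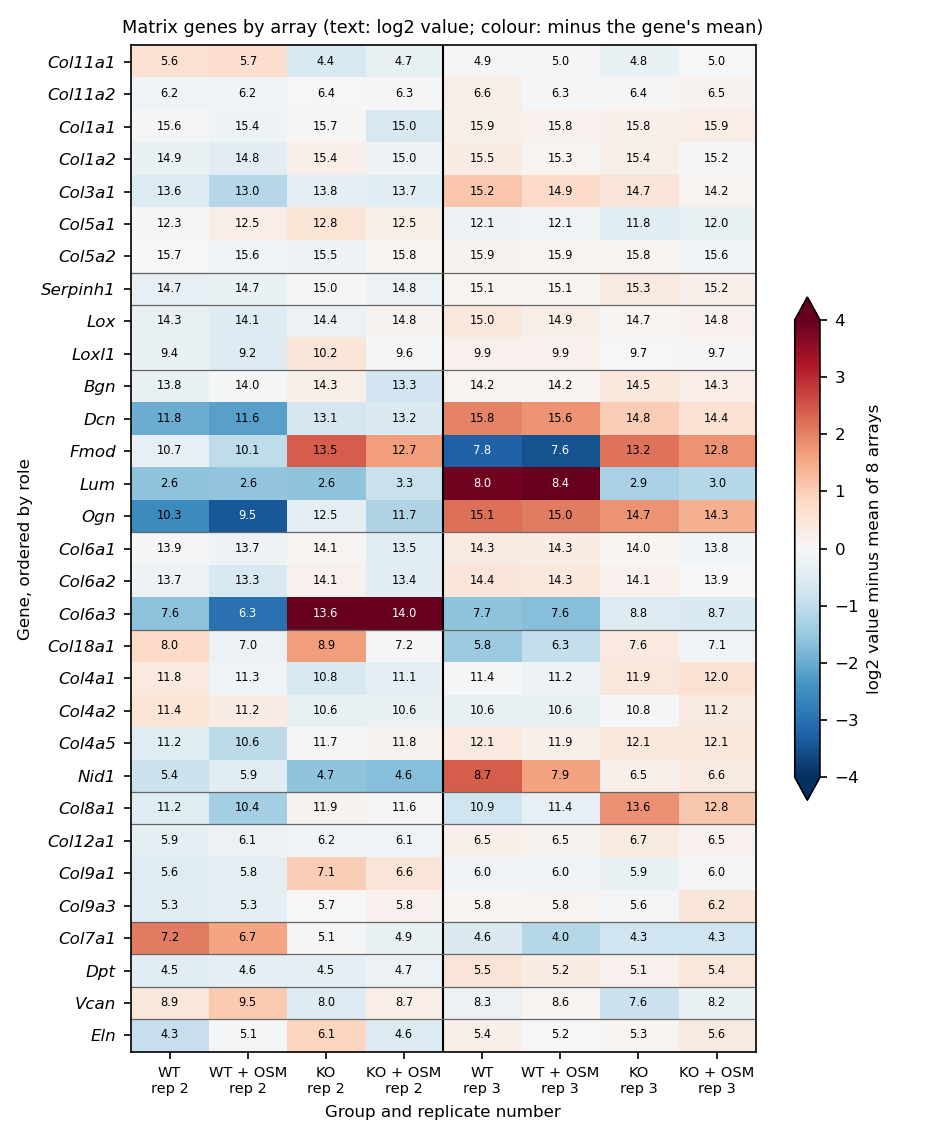
Log2 values of the 31 tested matrix genes (rows, ordered by role, each by its brightest tested probe set) on the 8 arrays (columns, replicate 2 left of the line and replicate 3 right of it), with colour giving the value minus the mean of that gene over all arrays and full colour at 4 or more. Col1a1, Col1a2 and Col5a2 stayed near their means, whereas Col6a3 was above 13 only in KO replicate 2, Lum above 8 only in WT replicate 3, and Fmod was lower on every WT array than on any KO array.

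Promoter sequences are shown for Fmod and Col6a3, which had the widest averaged genotype differences, for Ogn and Col3a1, in which every probe set differed between replicates, and for Dpt, which encodes dermatopontin, a small collagen-binding protein. Each is the 250 bases before the gene start in RefSeq assembly GRCm38.p6, written 5' to 3' on the strand of the gene. Capitals mark a match to a TATA box (TATAAA or its reverse complement) or to the STAT palindrome TTCNNNGAA.
Fmod, chr1:134037004-134037253, strand +: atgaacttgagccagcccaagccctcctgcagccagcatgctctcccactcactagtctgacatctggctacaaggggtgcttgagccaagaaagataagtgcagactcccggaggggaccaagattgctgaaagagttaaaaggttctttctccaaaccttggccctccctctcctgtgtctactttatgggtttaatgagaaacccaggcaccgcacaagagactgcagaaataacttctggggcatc
Col6a3, chr1:90843972-90844221, strand -: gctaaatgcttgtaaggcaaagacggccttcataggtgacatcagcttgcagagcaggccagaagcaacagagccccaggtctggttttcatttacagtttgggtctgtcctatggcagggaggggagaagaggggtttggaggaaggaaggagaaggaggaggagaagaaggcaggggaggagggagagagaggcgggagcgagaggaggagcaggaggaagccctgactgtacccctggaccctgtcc
Ogn, chr13:49607765-49608014, strand +: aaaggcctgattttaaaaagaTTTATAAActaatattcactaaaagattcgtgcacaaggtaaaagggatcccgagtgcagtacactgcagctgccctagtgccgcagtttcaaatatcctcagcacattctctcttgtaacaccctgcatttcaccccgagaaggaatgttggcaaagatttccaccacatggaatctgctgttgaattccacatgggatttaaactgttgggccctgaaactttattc
Col3a1, chr1:45311288-45311537, strand +: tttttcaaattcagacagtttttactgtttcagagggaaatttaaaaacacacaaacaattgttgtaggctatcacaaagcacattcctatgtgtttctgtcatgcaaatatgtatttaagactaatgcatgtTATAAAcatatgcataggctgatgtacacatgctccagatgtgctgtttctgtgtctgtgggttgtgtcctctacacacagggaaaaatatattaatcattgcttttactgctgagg
Dpt, chr1:164796413-164796662, strand +: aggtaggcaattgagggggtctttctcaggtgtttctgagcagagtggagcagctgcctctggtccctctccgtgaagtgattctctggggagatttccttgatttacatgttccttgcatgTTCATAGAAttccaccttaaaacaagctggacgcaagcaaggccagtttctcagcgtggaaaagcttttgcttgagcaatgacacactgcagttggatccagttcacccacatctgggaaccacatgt
In Ogn the forward and reverse matches to the TATA box overlap, 222 to 229 bases before the start, and in Col3a1 the match lies 112 to 117 bases before it. The promoter table held 26 promoters of 23 of the 33 member genes. Col12a1, Col1a1, Col26a1, Col5a2, Col9a3, Dcn, Eln, Lox, Loxl1 and Lum were not in it. Searched on both strands, the STAT palindrome occurred in 1 of these 26 (3.8%), that of Dpt, 120 to 128 bases before the start, and in 7.0% of all 32851 promoters of the same length. The TATA box occurred in 3 of 26 (11.5%, against 12.4% of all), CCAAT in 10 (38.5% against 33.8%), the AP-1 letters TGANTCA in 1 (3.8% against 6.7%) and the GC box GGGCGG in 16 (61.5% against 32.7%). A match is only a run of letters. The Fmod and Col6a3 windows held none of these motifs.

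Most fibril-forming collagens varied little between arrays by their brightest probe sets. Col1a1, the larger chain of type I collagen, read 15.56 and 15.85 in untreated WT cells, 15.41 and 15.81 in WT cells with OSM, 15.67 and 15.83 in untreated KO cells and 14.98 and 15.87 in KO cells with OSM. All 8 values lay between 14.98 and 15.87, and the genotypes and treatments overlapped. Col1a2, its partner chain, read 14.92 and 15.48 in untreated WT cells, 14.75 and 15.28 in WT cells with OSM, 15.39 and 15.41 in untreated KO cells and 14.97 and 15.23 in KO cells with OSM. Averaged over both treatments, KO minus WT was -0.07 ± 0.14 (limma standard error, SE) for Col1a1, with a 95% interval of -0.41 to 0.28, and 0.14 ± 0.12 for Col1a2, with an interval of -0.16 to 0.44. A second Col1a1 probe set read 12.70 and 10.05 in untreated WT cells, 12.47 and 10.70 in WT cells with OSM, 12.60 and 10.17 in untreated KO cells and 12.09 and 10.33 in KO cells with OSM, so it was lower on every replicate 3 array while the brighter one was not. Its replicate difference was -2.15 ± 0.21 (adjusted p = 0.00363), against 0.44 ± 0.14 (adjusted p = 0.0514) for the brighter one. The Col1a1 probe sets thus disagree on the replicates, and neither gave a called genotype difference.

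Type III collagen, which forms thin fibrils with type I, did differ between replicates. Its brightest Col3a1 probe set read 13.58 and 15.23 in untreated WT cells, 13.0 and 14.89 in WT cells with OSM, 13.76 and 14.65 in untreated KO cells and 13.70 and 14.24 in KO cells with OSM. In each group replicate 3 was the higher array. The replicate difference was 1.24 ± 0.25 (adjusted p = 0.0145), and 2.17 ± 0.46 and 1.64 ± 0.49 by the other Col3a1 probe sets (adjusted p = 0.0173 and 0.0431). The former of these read 11.08 and 14.06 in untreated WT cells, 10.82 and 14.27 in WT cells with OSM, 11.67 and 12.88 in untreated KO cells and 11.78 and 12.79 in KO cells with OSM, so the WT arrays were farther apart than the KO arrays. Col5a1, a minor fibril chain that regulates fibril diameter, read 12.31 and 12.05 in untreated WT cells, 12.52 and 12.14 in WT cells with OSM, 12.79 and 11.80 in untreated KO cells and 12.48 and 11.97 in KO cells with OSM. Here the replicate difference was -0.54 ± 0.16 (adjusted p = 0.0439). A second Col5a1 probe set read 11.26 and 11.02 in untreated WT cells, 10.77 and 10.81 in WT cells with OSM, 10.37 and 9.99 in untreated KO cells and 9.73 and 9.94 in KO cells with OSM. On that probe set every KO array lay below every WT array, with an averaged genotype difference of -0.96 ± 0.16 that did not pass (adjusted p = 0.0893), while the brighter one gave 0.00 ± 0.16. Col5a2 varied by under 1 on this scale over all arrays, as did Col11a2. Col11a1, which helps to start fibrils, read 5.64 and 4.95 in untreated WT cells, 5.69 and 4.95 in WT cells with OSM, 4.40 and 4.75 in untreated KO cells and 4.72 and 4.98 in KO cells with OSM, all close to background. Only its WT replicate 2 arrays reached log2 5, so Col11a1 passed the filter only through the arrays where it was high.

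Transcripts for the proteins that fold and crosslink fibrils also varied little between arrays. Serpinh1 read 14.67 and 15.10 in untreated WT cells, 14.74 and 15.08 in WT cells with OSM, 15.04 and 15.34 in untreated KO cells and 14.76 and 15.19 in KO cells with OSM. Its replicate difference was small but passed, 0.37 ± 0.08 (adjusted p = 0.02), and its averaged genotype difference was 0.19 ± 0.08 (adjusted p = 0.322). Lox, the enzyme that starts collagen and elastin crosslinks, read 14.33 and 15.05 in untreated WT cells, 14.13 and 14.87 in WT cells with OSM, 14.39 and 14.70 in untreated KO cells and 14.79 and 14.81 in KO cells with OSM. No planned comparison called Lox or its relative Loxl1, which spanned 9.17 to 10.18. A fit added later called the replicate difference of Lox in WT, as described below.

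Among the small leucine-rich proteoglycans, Fmod had the widest averaged genotype difference of the 31 genes. Fibromodulin binds fibrillar collagen and is most abundant in tendon. Fmod read 10.73 and 7.81 in untreated WT cells, 10.06 and 7.59 in WT cells with OSM, 13.49 and 13.24 in untreated KO cells and 12.73 and 12.84 in KO cells with OSM. Every KO array lay above every WT array, and within WT the replicate 3 arrays were the lower ones. KO minus WT was 4.10 ± 0.81 without OSM and 3.96 ± 0.81 with OSM (adjusted p = 0.372 and 0.192), and 4.03 ± 0.57 averaged over treatment, with a 95% interval of 2.61 to 5.45 (adjusted p = 0.0645). The second Fmod probe set, of the r type, designed under relaxed rules, read 8.98 and 8.07 in untreated WT cells, 8.87 and 8.0 in WT cells with OSM, 9.19 and 8.11 in untreated KO cells and 8.32 and 8.13 in KO cells with OSM, with an averaged genotype difference of -0.04 ± 0.21. The genotype difference of Fmod therefore rests on 1 of its probe sets.

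Lum was detected in 1 genotype at 1 replicate number. Lumican limits fibril diameter in cornea, skin and tendon. Lum read 2.56 and 8.04 in untreated WT cells, 2.61 and 8.43 in WT cells with OSM, 2.56 and 2.89 in untreated KO cells and 3.29 and 3.02 in KO cells with OSM. Both WT replicate 3 arrays were above log2 8, and the other 6 arrays were at 2.56 to 3.29, near background. Lum passed the filter for testing only through those WT replicate 3 arrays. Its p-values for differences that set them apart are therefore no independent support. With values under 5 set to 5, KO minus WT within replicate 3 was -3.24 in place of -5.28.

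Dcn and Ogn moved with the replicates in both genotypes. Decorin binds type I collagen and growth factors. Dcn read 11.80 and 15.78 in untreated WT cells, 11.60 and 15.58 in WT cells with OSM, 13.12 and 14.76 in untreated KO cells and 13.21 and 14.39 in KO cells with OSM. The 4 replicate 3 arrays, at 14.39 to 15.78, lay above the 4 replicate 2 arrays, at 11.60 to 13.21, and the difference was 2.70 ± 0.55 (adjusted p = 0.0157). Ogn, an osteoglycin probe set, read 10.33 and 15.06 in untreated WT cells, 9.48 and 14.95 in WT cells with OSM, 12.51 and 14.68 in untreated KO cells and 11.65 and 14.28 in KO cells with OSM. Its replicate difference was 3.75 ± 0.59 (adjusted p = 0.00845), and that of the second Ogn probe set was 4.66 ± 0.84 (adjusted p = 0.0112). Bgn, the proteoglycan closest to decorin, showed no such step, reading 13.80 and 14.20 in untreated WT cells, 14.03 and 14.18 in WT cells with OSM, 14.34 and 14.52 in untreated KO cells and 13.31 and 14.35 in KO cells with OSM. Its replicate difference was 0.44 ± 0.17 (adjusted p = 0.0907).

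Several of these genes are chromosomal neighbours. In the RefSeq gene order of GRCm38.p6, Lum lies next to Dcn and is followed by Kera and Epyc, which encode further small leucine-rich proteoglycans. Kera and Epyc stayed at 2.77 to 3.91 on all arrays. Omd, which encodes osteomodulin, lies next to Ogn, and its values lay between 4.32 and 5.75 on replicate 2 arrays and between 7.30 and 8.14 on replicate 3 arrays. The Omd difference was 2.94 ± 0.33 (adjusted p = 0.00439). Some neighbours of other kinds were also higher in replicate 3. Iars, near Ogn, lay at 11.9 to 12.49 on replicate 2 arrays and at 12.57 to 13.38 on replicate 3 arrays. Btg2, next to Fmod, lay at 5.31 to 6.08 and at 6.64 to 9.2. Values of Eea1 and Btg1 near Dcn, and of Dusp9 near Bgn, overlapped between the numbers. Omd was the only tested gene of 8 further small leucine-rich proteoglycans on the list.

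**Figure D2:**
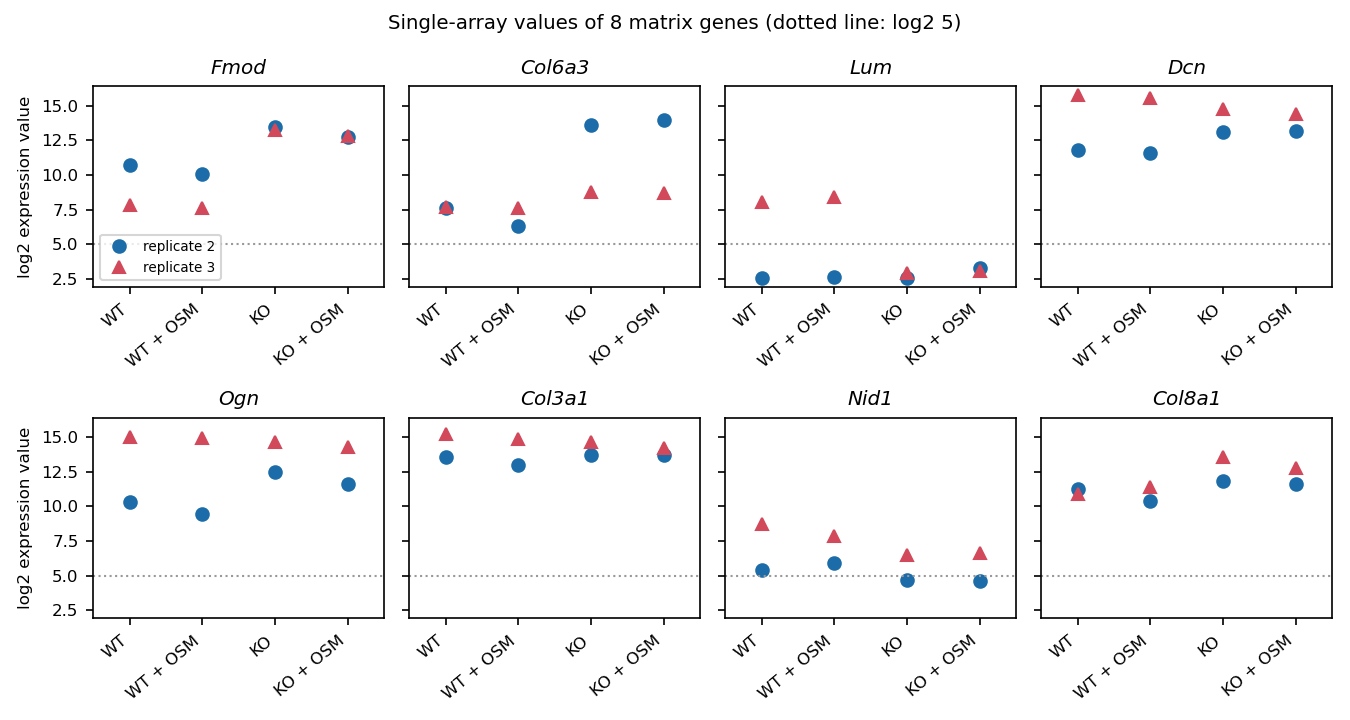
Log2 expression values (vertical axis) of 8 matrix genes on single arrays, by group (horizontal axis), with circles for replicate 2 and triangles for replicate 3; the dotted line is the log2 floor of 5. Fmod separates KO from WT at both numbers, Col6a3 is above 13 only in KO replicate 2, Lum is above 8 only in WT replicate 3, and Dcn and Ogn are higher in replicate 3 in all groups.

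Type VI collagen is assembled from 3 chains, and the values of Col6a3 were unlike those of the others. Col6a3 read 7.64 and 7.66 in untreated WT cells, 6.30 and 7.59 in WT cells with OSM, 13.59 and 8.77 in untreated KO cells and 13.99 and 8.66 in KO cells with OSM. Both KO replicate 2 arrays were above 13, KO replicate 3 arrays were at 8.66 and 8.77, and WT arrays did not exceed 7.66. Within replicate 2 the genotype difference was 5.95 without OSM and 7.70 with OSM, and within replicate 3 it was 1.11 and 1.08. Averaged over treatment it was 3.96 ± 1.23, with an interval of 0.90 to 7.02 (adjusted p = 0.202). Col6a1 read 13.87 and 14.33 in untreated WT cells, 13.75 and 14.26 in WT cells with OSM, 14.06 and 14.02 in untreated KO cells and 13.52 and 13.85 in KO cells with OSM, and Col6a2 read 13.71 and 14.39 in untreated WT cells, 13.31 and 14.33 in WT cells with OSM, 14.08 and 14.09 in untreated KO cells and 13.45 and 13.94 in KO cells with OSM. A second Col6a1 probe set read 13.37 and 14.20 in untreated WT cells, 13.12 and 14.09 in WT cells with OSM, 13.44 and 13.36 in untreated KO cells and 13.77 and 13.43 in KO cells with OSM. Neither chain separated the genotypes by its brightest probe set, with averaged differences of -0.19 ± 0.13 and -0.04 ± 0.18.

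Among basement membrane genes, Nid1, which links laminin to type IV collagen, differed most between replicates of the 5 members. Nid1 read 5.43 and 8.74 in untreated WT cells, 5.88 and 7.90 in WT cells with OSM, 4.69 and 6.51 in untreated KO cells and 4.61 and 6.65 in KO cells with OSM. Replicate 3 was higher in each group, by 2.29 ± 0.29 (adjusted p = 0.00537), and KO was lower than WT in each of the 4 matched pairs of arrays, by -1.37 ± 0.29 averaged over treatment (adjusted p = 0.119). Both KO replicate 2 values were under 5, so the genotype size is a rough one there. Col4a1, a chain of the common type IV network, read 11.81 and 11.36 in untreated WT cells, 11.25 and 11.22 in WT cells with OSM, 10.81 and 11.89 in untreated KO cells and 11.07 and 12.03 in KO cells with OSM. KO was below WT within replicate 2 and above it within replicate 3, and the averaged difference was 0.04 ± 0.30. Col4a2, which assembles with Col4a1, read 11.42 and 10.55 in untreated WT cells, 11.16 and 10.58 in WT cells with OSM, 10.57 and 10.81 in untreated KO cells and 10.61 and 11.22 in KO cells with OSM. Col4a5, a chain with a narrower tissue range, read 11.20 and 12.09 in untreated WT cells, 10.64 and 11.89 in WT cells with OSM, 11.65 and 12.15 in untreated KO cells and 11.84 and 12.11 in KO cells with OSM. It differed by 0.73 ± 0.20 between replicates (adjusted p = 0.0323) and by 0.49 ± 0.20 between genotypes (adjusted p = 0.287). Col18a1, the source of the fragment endostatin, read 8.01 and 5.79 in untreated WT cells, 7.03 and 6.31 in WT cells with OSM, 8.93 and 7.64 in untreated KO cells and 7.20 and 7.12 in KO cells with OSM. Its KO value was the higher in all 4 matched pairs, and the averaged difference was 0.94 ± 0.36 (adjusted p = 0.274).

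The remaining members were mixed. Col8a1, a short-chain network collagen of vessel walls and Descemet's membrane, read 11.24 and 10.91 in untreated WT cells, 10.37 and 11.38 in WT cells with OSM, 11.86 and 13.56 in untreated KO cells and 11.63 and 12.80 in KO cells with OSM. The averaged KO minus WT difference was 1.49 ± 0.34, with an interval of 0.65 to 2.32 (adjusted p = 0.132). Col7a1, which forms anchoring fibrils of skin, read 7.22 and 4.56 in untreated WT cells, 6.74 and 4.0 in WT cells with OSM, 5.07 and 4.33 in untreated KO cells and 4.88 and 4.35 in KO cells with OSM. Only the WT replicate 2 arrays were above 6, and the replicate difference was -1.67 ± 0.46 (adjusted p = 0.0345), or -1.01 and not called with values under 5 set to 5. No replicate 3 array of Col7a1 reached log2 5, so the filter passed it by the same difference and its call is no independent support. Vcan, a large hyaluronan-binding proteoglycan, read 8.95 and 8.27 in untreated WT cells, 9.54 and 8.60 in WT cells with OSM, 7.97 and 7.63 in untreated KO cells and 8.74 and 8.23 in KO cells with OSM. KO was lower in all 4 matched pairs, by -0.70 ± 0.18 averaged (adjusted p = 0.151), and the replicate difference was -0.62 ± 0.18 (adjusted p = 0.0379). Dpt read 4.48 and 5.47 in untreated WT cells, 4.59 and 5.24 in WT cells with OSM, 4.54 and 5.12 in untreated KO cells and 4.69 and 5.38 in KO cells with OSM, a replicate difference of 0.72 ± 0.16 (adjusted p = 0.0195) between values near background, which was 0.30 and not called with values under 5 set to 5. Only the replicate 3 arrays reached log2 5, so the filter passed Dpt by the same difference and its call is no independent support. Eln, the elastin gene, read 4.28 and 5.40 in untreated WT cells, 5.12 and 5.21 in WT cells with OSM, 6.07 and 5.33 in untreated KO cells and 4.64 and 5.57 in KO cells with OSM, mostly within 1 of the floor. The fibril-associated Col9a1, a type IX chain, read 5.65 and 5.99 in untreated WT cells, 5.79 and 5.96 in WT cells with OSM, 7.12 and 5.86 in untreated KO cells and 6.65 and 6.04 in KO cells with OSM. It was at 6.65 or more only in KO replicate 2, and Col9a3 and Col12a1 spanned 5.27 to 6.67.

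The planned genotype comparisons, which take the replicate difference as equal in all groups, called no member. Without OSM limma called 0 of 40 member probe sets and 0% of all 6756, and 7 members (17.5%) had an unadjusted p under 0.05, against 9.67% of all. With OSM it called 0 of 40 and 0.104% of all, with 6 members (15%) and 12% of all at an unadjusted p under 0.05. Averaged over treatment it called 0 of 40 and 0.429% of all, with 7 members (17.5%) and 17.4% of all at an unadjusted p under 0.05. The median difference of the 31 genes was 0.07 averaged over treatment, against -0.03 over all probe sets tested. Over the 4 matched pairs of KO and WT arrays, Col12a1, Col18a1, Col4a5, Col6a3, Col8a1, Fmod and Serpinh1 were higher in KO in all (7 of 31 genes, against 9.98% of all probe sets), and Nid1 and Vcan were lower in all (2 of 31, against 14.1%). The genotype direction was opposite in replicates 2 and 3 for 17 of 31 genes without OSM and for 16 with OSM. The same count was not made over all probe sets, so it does not set the matrix genes apart.

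Because Col6a3, Lum and Fmod differed by genotype unequally at the 2 replicate numbers, a term for genotype by number was added after these values had been seen. It leaves 2 residual degrees of freedom. Within a genotype and number, the untreated and OSM arrays stand in for replicates, and each genotype has a single such set per number. The SE and p-values of this fit thus reflect the spread between treatments, not how far a genotype difference would repeat. In this fit 7 of 40 member probe sets (17.5%) differed between genotypes within replicate 2, against 5.85% of all, and 7 within replicate 3, against 7.55%. Within replicate 2, KO was higher by 6.83 ± 0.35 for Col6a3 (adjusted p = 0.00328), 2.72 ± 0.20 for Fmod (adjusted p = 0.00547), 2.17 ± 0.23 for Ogn (adjusted p = 0.015) and 1.46 ± 0.16 for Dcn (adjusted p = 0.0155). The second Ogn probe set gave 3.03 ± 0.56 there (adjusted p = 0.049), and from 1.94 to 4.11 with 1 array left out. KO was lower there for Col7a1 at -2.0 ± 0.19 and for Col11a1 at -1.11 ± 0.19 (adjusted p = 0.0106 and 0.0405). Within replicate 3, KO was higher for Fmod at 5.34 ± 0.20 (adjusted p = 0.00104) and for Col8a1 at 2.04 ± 0.35 (adjusted p = 0.0366). KO was lower there for Lum at -5.28 ± 0.23 (adjusted p = 0.00212), Dcn at -1.10 ± 0.16 (adjusted p = 0.0264), the dimmer Col3a1 probe sets at -1.33 ± 0.17 and -1.22 ± 0.24 (adjusted p = 0.0211 and 0.0482) and a second Col6a1 probe set at -0.75 ± 0.14 (adjusted p = 0.045). Lum and Col11a1 passed the filter only through the WT arrays where they were high. Col7a1 passed it only through replicate 2 arrays, both WT ones among them. The calls of these genes here are therefore no independent support. Fmod kept its direction at both numbers by its brighter probe set, and Dcn turned between them. The second Fmod probe set gave -0.17 within replicate 2 and 0.09 within replicate 3, neither called. With values under 5 set to 5, Col11a1 was at -0.66 and lost its call (adjusted p = 0.0614), as did the dimmest Col3a1 probe set within replicate 3 (adjusted p = 0.0517). So did the second Ogn probe set within replicate 2 (adjusted p = 0.054). Centring on the median ended the calls of that Col3a1 probe set and of the second Col6a1 probe set within replicate 3 (adjusted p = 0.0581 and 0.0659). With genotype averaged, the same fit called 8 of 40 member probe sets, against 8.39% of all.

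The difference between numbers was itself unequal between the genotypes for 9 of 40 member probe sets (22.5%), against 5.6% of all. Col6a3, Lum and Fmod had prompted the term. This share and the p-values of the added fit therefore describe values already seen and are no independent test. From replicate 2 to replicate 3, Dcn differed by 3.98 ± 0.16 in WT and 1.41 ± 0.16 in KO, and Ogn by 5.10 ± 0.23 in WT and 2.40 ± 0.23 in KO, each called in both genotypes. Lum differed by 5.65 ± 0.23 in WT, and Fmod by -2.69 ± 0.20 in WT. Col6a3 differed by -5.08 ± 0.35 in KO (adjusted p = 0.00373) and by 0.65 ± 0.35 in WT (adjusted p = 0.184). The corresponding KO values were 0.03 for Lum and -0.07 for Fmod, neither called. KO minus WT of the replicate difference was -5.73 ± 0.50 for Col6a3 (adjusted p = 0.0133), -5.62 ± 0.33 for Lum (adjusted p = 0.00986), -2.70 ± 0.33 for Ogn (adjusted p = 0.022), 2.63 ± 0.28 for Fmod (adjusted p = 0.0167) and -2.57 ± 0.23 for Dcn (adjusted p = 0.0133). The second probe sets of Fmod and Ogn gave 0.26 and -3.54, neither called. In all, 21 member probe sets (52.5%) differed between numbers in WT, against 46.3% of all, and 12 (30%) in KO, against 28.5% of all. Among those called in WT were Col1a2 (0.54 ± 0.13), Lox (0.73 ± 0.14), Col6a2 (0.85 ± 0.18) and Col4a2 (-0.72 ± 0.18). These 4 calls were lost without any 1 WT array, and centring on the median gave 0.24 for Col1a2 and 0.43 for Lox, neither called (adjusted p = 0.153 and 0.0799). Among those called in KO were Col4a1 (1.02 ± 0.17), Col8a1 (1.43 ± 0.35) and Col9a1 (-0.94 ± 0.25). Without either untreated KO array all 3 of these calls were lost, and centring on the median ended that of Col8a1 (adjusted p = 0.0584). Leaving out any 1 of the 4 WT arrays ended all 9 calls of unequal difference, and leaving out any 1 KO array left 5 or 6. With 1 array left out the sizes ranged from -6.37 to -5.10 for Col6a3, -5.93 to -5.32 for Lum and 2.40 to 2.85 for Fmod. For Lum, with 6 of 8 arrays near background, setting values under 5 to 5 gave -3.24 in place of -5.62 (adjusted p = 0.017) and 3.24 in place of 5.65 in WT. Fmod within replicate 3 was called whichever array was left out, while Col6a3 within replicate 2 lost its call without WT OSM replicate 2 (adjusted p = 0.0545) and Lum within replicate 3 without WT OSM replicate 3 (adjusted p = 0.054). Fmod within replicate 2 lost its call without either WT replicate 2 array, with a highest adjusted p of 0.129. Dcn lost its calls within each number without any 1 WT array, and Ogn, Col7a1 and Col11a1 lost theirs within replicate 2 without any 1 replicate 2 array. Within replicate 3 Col8a1, Col3a1 and Col6a1 lost theirs without any 1 replicate 3 array. By the added term, 10 of 18 proliferation genes and 3 of 17 interferon-stimulated genes were called, each with a replicate difference more positive in KO. Of all probe sets 5.6% were called in either direction, and 7 of the 9 member calls were more negative in KO. Called or not, it was more positive in KO for 18 of 18 proliferation and 16 of 17 interferon-stimulated genes. Among markers of other cell types, Tagln, 1 of 3 tested myofibroblast markers, was called as more positive in KO, at 5.79 ± 0.43 (adjusted p = 0.0126). So was Krt8, 1 of 2 tested epithelial markers, at 2.92 ± 0.28 (adjusted p = 0.0144). The other tested epithelial marker went the other way, and the median of the 2 was 1.36. Cd34, 1 of 3 tested endothelial markers, had a more negative replicate difference in KO, at -2.94 ± 0.24 (adjusted p = 0.0126). Of these 3 markers, 1 had a more positive replicate difference in KO, and their median was -0.90. Between genotypes, Tagln was 5.73 ± 0.31 higher in KO within replicate 3, Cd34 3.84 ± 0.17 higher within replicate 2, and Krt8 differed by -2.89 ± 0.20 within replicate 2 (adjusted p = 0.00294, 0.00245 and 0.00544). In the same comparisons 3 of 3 myofibroblast, 2 of 3 endothelial and 1 of 2 epithelial markers tested were higher in KO. The medians of these were 1.06, 0.04 and -1.325. The mean over all 5 myofibroblast markers ranged from 6.40 to 7.25 on WT arrays and from 7.08 to 7.99 on KO arrays. The fibroblast markers Pdgfra and Prrx1 had a replicate difference that was more negative in KO, at -2.0 ± 0.32 and -2.34 ± 0.38 (adjusted p = 0.0371 and 0.038), while the mean over the 10 fibroblast markers was 8.36 to 9.25 on all arrays. Their part in the matrix differences was not tested.

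**Figure D3:**
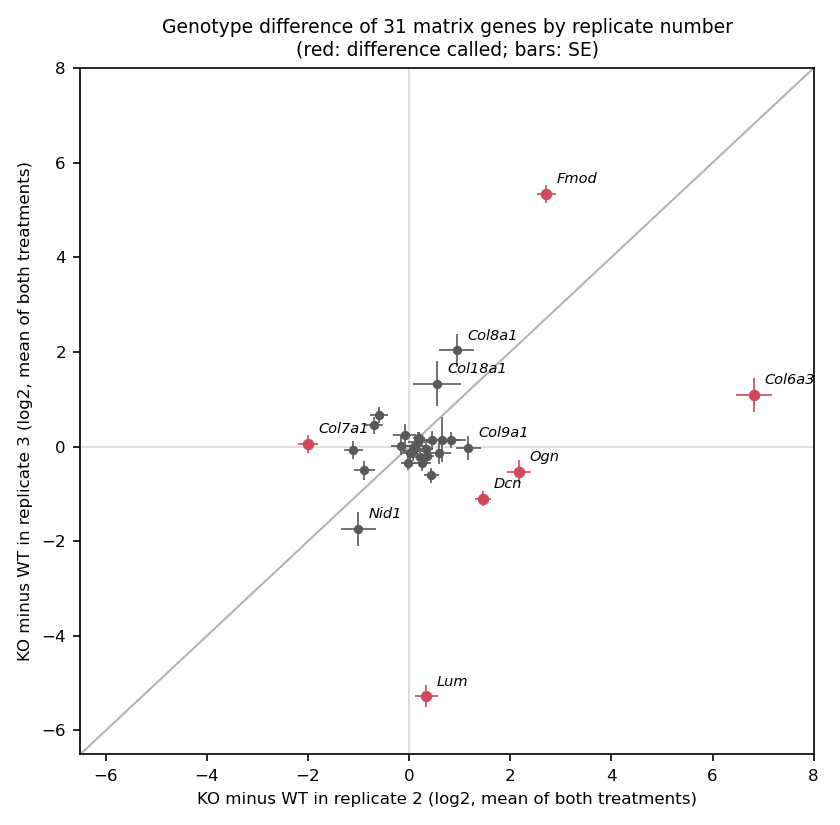
KO minus WT (log2, mean of both treatments, bars show the SE) of the 31 matrix genes within replicate 2 (horizontal axis) and replicate 3 (vertical axis), with the diagonal marking equal differences and red marking genes whose difference was unequal by the added term. Fmod lies above the diagonal at 2.72 and 5.34, Col6a3 far right at 6.83 and 1.09, and Lum at the bottom at 0.34 and -5.28.

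OSM for 30 minutes left this group of genes without a call. In WT cells limma called 0 of 40 member probe sets and 0.0148% of all, with 0 members and 7.18% of all at an unadjusted p under 0.05. In KO cells it called 0 of 40 and 0.0296% of all, with 1 member (2.5%) and 11% of all at that unadjusted p. Averaged over genotype it called 0 of 40 and 0.118% of all, with 1 member and 13.1% at that unadjusted p. The difference of the OSM responses between genotypes called 0 of 40 and 0% of all, with 0 members and 3.67% of all at that unadjusted p. In WT the 31 gene differences lay between -0.71 (Col6a3) and 0.46 (Vcan), and in KO between -1.13 (Col18a1) and 0.69 (Vcan). The medians were -0.13 in WT and -0.12 in KO, against -0.04 and 0.02 over all probe sets tested.

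Vcan had the smallest p of the members with OSM. It read higher with OSM in all 4 pairs, by 0.59 and 0.34 in WT and 0.78 and 0.60 in KO (replicates 2 and 3), and its averaged difference was 0.58 ± 0.18, with an interval of 0.14 to 1.01 (adjusted p = 0.284). Col11a1, Col9a3 and Lum also read higher in all 4 pairs, which makes 4 of 31 genes against 13.4% of all probe sets, though Lum and Col11a1 were near background on most arrays. Col1a2, Col3a1, Col6a1, Col6a2, Fmod and Ogn read lower in all 4 by their brightest probe sets (6 of 31, against 15.7%). Other probe sets of Col3a1, Col6a1, Ogn and Fmod did not. They were higher with OSM in at least 1 pair, as by 0.52 for Col3a1, 0.34 for Col6a1 and 0.84 for Ogn in KO replicate 2. The second Fmod probe set was higher by 0.025 in KO replicate 3. Col1a2 differed by -0.25 ± 0.12 averaged over genotype, and Col3a1 by -0.34 ± 0.25 (adjusted p = 0.479 and 0.63). In KO cells Bgn differed by -0.60 ± 0.25 (adjusted p = 0.455), from -1.02 in replicate 2 and -0.18 in replicate 3, and the difference of its responses between the genotypes was -0.71 ± 0.35 (adjusted p = 0.913).

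**Figure D4:**
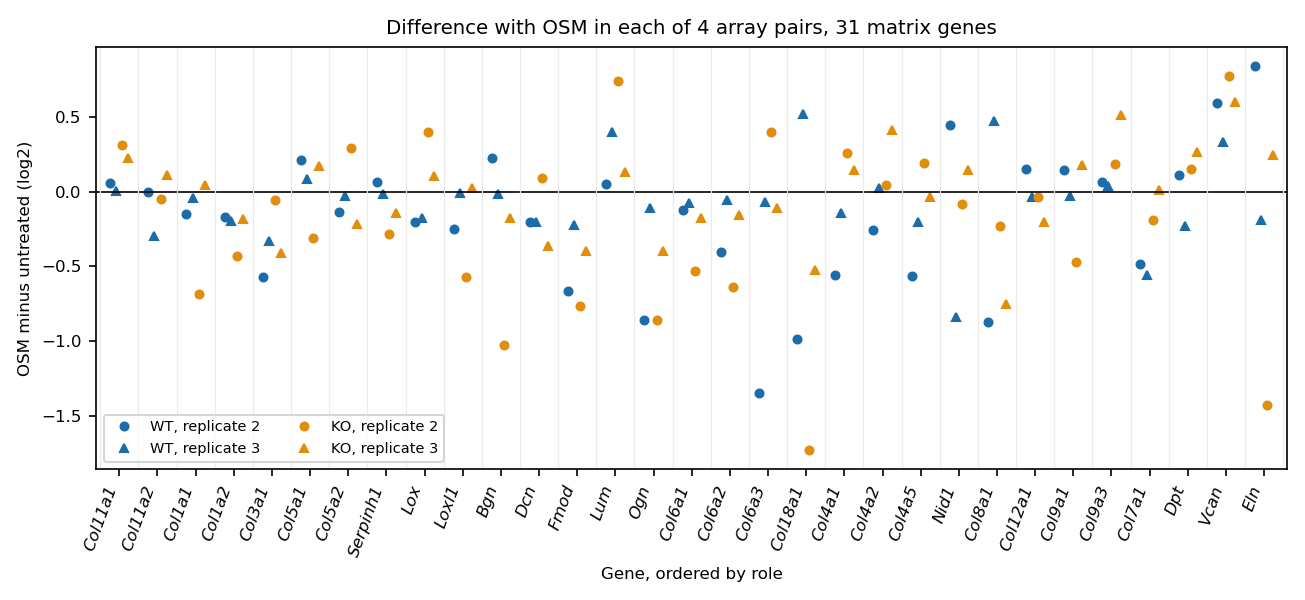
OSM minus untreated (log2, vertical axis) for the 31 matrix genes (horizontal axis, ordered by role) in each of the 4 matched pairs of arrays, with circles for replicate 2, triangles for replicate 3, blue for WT and orange for KO. Vcan lies above 0 in all 4 pairs, Col1a2 and Fmod lie below it in all 4, and 96 of the 124 pair differences lie within 0.5 of 0.

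Across the replicate numbers 15 of 40 member probe sets (37.5%) were called, near the 41.1% of all probe sets. Of the 15, 10 were higher in replicate 3 and 5 lower, which is 25% and 12.5% of the members, against 23.4% and 17.7% of all. Leaving out 1 array gave 4 or 5 calls for any WT array, 9 for untreated KO replicate 2, and 10 to 15 for the other KO arrays. By role, the calls of brightest probe sets were 2 of 5 small leucine-rich proteoglycans (Dcn and Ogn), 2 of 5 basement membrane genes (Nid1 and Col4a5), Serpinh1, Dpt and Col3a1, all higher in replicate 3, and Col5a1, Col7a1 and Vcan, all lower. Centring each array on its median changed the split to 6 higher and 6 lower, and renewed quantile normalization to 7 and 6, and the median of all probe sets shifted from 0.09 to -0.17 and -0.04. The calls of Serpinh1 and Dpt were lost under both, and that of Col4a5 under median centring. Interferon-stimulated genes rose with the number (13 of 17 tested, median 3.42) and proliferation genes fell (14 of 18 tested, median -2.07). The mean log2 value of the proliferation list was 10.61 to 11.24 on replicate 2 arrays and 8.28 to 9.71 on replicate 3 arrays. The difference between 3' and 5' actin probe sets, which grows as RNA degrades, lay between 0.33 and 0.53 on replicate 2 arrays and between 0.72 and 1.11 on replicate 3 arrays. For Gapdh it was 0.03 to 0.11 and 0 to 0.27. The 3' probe set of 18S ribosomal RNA was at 11.02 to 11.67 on replicate 2 arrays and at 14.75 to 15.13 on replicate 3 arrays. The part of these in the matrix differences was not tested.

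Genes that serve the same matrix were counted from lists, to be read against the 23.4% of all probe sets that were higher in replicate 3. Of 14 tested collagen processing genes 0 were called by limma in the planned genotype and OSM comparisons, and 3 rose from replicate 2 to 3, namely the prolyl hydroxylase subunits P4ha1 (0.85 ± 0.17) and P4hb (1.30 ± 0.31) and the chaperone Hspa5 (0.92 ± 0.18). All 4 tested collagen receptor genes rose with the number, among them Ddr1, a kinase receptor for collagen, by 1.62 ± 0.16. Of 9 further basement membrane genes 5 rose, led by the second nidogen, Nid2, at 6.01 ± 0.37 and the laminin chain Lama4 at 2.52 ± 0.20. Of 6 tested elastic fibre and fibril partners, 2 rose, Ltbp1 (1.28 ± 0.29) and Ltbp4 (1.10 ± 0.23), which hold latent TGF-beta. Of 11 tested TGF-beta pathway genes 1 rose, Tgfb2 (1.60 ± 0.25). In the added fit 1 of the 11 had a replicate difference that was unequal between genotypes, and the median of the 11 was -0.39. That gene, the TGF-beta target Ccn2, differed by -5.38 ± 0.87 between numbers in WT and by 5.04 ± 0.87 in KO, and the KO minus WT difference of these was 10.42 ± 1.22 (adjusted p = 0.0204).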

How the data were processed

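Biotin-labelled RNA was hybridised to Affymetrix mouse arrays, per the labels' protocols. The deposited file holds log2 values, 1 per probe set and array, which the authors made with GCRMA and affy per the submitters' processing notes. The versions, and whether all arrays were normalized jointly, are not stated in what was used here. GCRMA gives dim probe sets low and even values, which can enlarge a log2 difference from background. Genes come from the platform annotation, and the symbols of all 62 matched probe sets equal those in RefSeq.

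After 66 of 12488 probe sets were set aside as controls, limma 3.58.1 in R 4.3.3 (lmFit, eBayes with trend, two-sided) fitted 4 group means and the replicate number on all 8 arrays, with 3 residual degrees of freedom. P-values were adjusted by Benjamini-Hochberg across 6756 probe sets with log2 at least 5 on at least 2 arrays, with 0.05 as the threshold for a call. A gene stands by its brightest tested probe set. Pairing of the numbers comes from the data (correlations of 0.589 to 0.911). The members, gene lists and tests were chosen with earlier results of these data known. All members may be named, with single-array values for called members, the 5 smallest p per comparison and a set of core genes. The fit was tested on simulated data. Alternatives were the fit without the block, other filters, variance models and scalings, 1 probe set per gene and leaving out each array.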

Additional observations from a re-analysis of the deposited data

Results flagged for a closer look

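For 9 member probe sets of 8 genes the difference between replicates 3 and 2 was unequal between the genotypes, by the term added after the data were seen (limma, adjusted p from 0.00986 to 0.0463). KO minus WT of that difference was -5.73 for Col6a3, -5.62 for Lum (-3.24 with values under 5 set to 5), -2.70 for Ogn, 2.63 for Fmod, -2.57 for Dcn, -2.17 and -2.10 for the dimmer Col3a1 probe sets, 2.06 for Col7a1 and -1.11 for the dimmer Col6a1 probe set. The brightest Col3a1 probe set gave -1.05 (adjusted p = 0.0641) and the brightest Col6a1 probe set was not called. The second Fmod probe set gave 0.26 (adjusted p = 0.751) and the second Ogn probe set -3.54, neither called. Col6a3, Lum and Fmod prompted the term. Lum passed the filter only through its 2 high arrays, and Col7a1 only through replicate 2 arrays. These p-values are therefore no independent support. Groups of 2 arrays allow no test for single outlying arrays.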

How the results depend on the processing

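The 7 planned genotype and OSM comparisons called 0 member probe sets without the replicate block and under each other planned setting, with 1 exception after the data were seen: the term for genotype by number called 8 in the averaged genotype comparison. The 15 calls between replicate numbers ranged from 10 to 21 over the other settings and from 4 to 15 with 1 array left out. In the added fit, leaving out 1 array gave 0 to 8 calls for genotype within replicate 2, 1 to 9 within replicate 3, 9 to 11 (a WT array out) or 25 (a KO array out) for the number in WT, 5 to 10 in KO and 0 to 6 for its difference by genotype. Such a fit keeps 1 residual degree of freedom. With values under 5 set to 5, or rescaled arrays, these counts stayed within 1.5 times. Col6a2 with OSM in WT turned from -0.23 to 0.087 without WT OSM replicate 2. Only 2 arrays a group limit the precision, and values under 5 lie near background.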
